A study of Mus musculus with 6 samples.

Results

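Genes that run mitosis and DNA replication were measured in sorted mouse mammary tumor cells with and without RANK, a receptor of the tumor necrosis factor family that activates NF-kB. Tnfrsf11a is its gene. The set was a fixed list of 56 genes, 28 of mitosis and 28 of DNA replication, found on the arrays by matching the accession of each probe to the gene symbol. Probes for all 56 were present, and 52 of the 56 (26 mitosis and 26 replication genes) were bright enough to be tested among 22503 genes in all. The cells were live CD45- cells, sorted for absence of CD45, a protein on the surface of leukocytes, after tumors were taken apart with enzymes. They came from late carcinoma tumors of MMTV-PyMT mice, in which a mammary promoter drives the polyomavirus middle T oncogene, transplanted orthotopically into C57BL/6 hosts of the same strain. Both groups carried the oncogene, and donor tumor cells were either RANK-/- or RANK+/+. The host's own cells kept RANK, so the loss was limited to the transplanted cells. Each array held RNA of a RANK-/- and a RANK+/+ tumor in different dyes. There were 3 such pairs with 2 arrays each, A and B, and whether separate tumors gave the 3 RNAs of each genotype is left unsaid in the labels. RANK-/- RNA carried Cy5 in pair 1 and Cy3 in pairs 2 and 3.

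Dividing cells copy their genome in S phase and part the copies in mitosis, and the genes for each step are switched on in waves. Before S phase, E2F factors turn on the genes for origin licensing, the replicative helicase, the fork enzymes and deoxynucleotide synthesis. Later, the B-Myb complex helps turn on mitotic kinases, spindle motors and checkpoint proteins, whose genes often carry CHR and CCAAT letters near their starts. The summed RNA of these genes is a common measure of how much of a tumor cell population is cycling. In bulk RNA, fewer cycling cells and less RNA per cycling cell cannot be told apart.

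Tnfrsf11a checks the labels. Its log2 ratio of RANK-/- over RANK+/+ was 2.03, 1.15 and 1.76 in pairs 1, 2 and 3, higher in the channel labeled RANK-/- each time, with a mean of 1.65 ± 0.45 (SD, n = 3 pairs). This goes against the labels, and the sources used here do not say whether the probe lies in the deleted part of the gene, so all directions given here are those of the labels. An exchange of the genotype labels cannot be told apart from this, and with the labels exchanged every ratio would have the opposite sign. Between 51.9% and 58.8% of gene probes were well above background in a channel, and no gene spot was saturated. Of the 16 leukocyte markers looked up, 11 were tested, and Ptprc, which encodes CD45, stood clear of background in the RANK-/- channel of 5 arrays and the RANK+/+ channel of 4 arrays (of 6). Luminal keratins Krt8 and Krt18 stood clear of it in each channel of the 6 arrays.

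The mitosis and replication genes varied together, and in a different direction in different pairs. Against a median over all genes tested of 0.02, -0.01 and 0.00 on the log2 scale, the median log2 ratio of the 52 genes was -0.76 in pair 1, 0.58 in pair 2 and -1.03 in pair 3. The channel labeled RANK-/- thus held less of these RNAs than its partner in pairs 1 and 3 and more in pair 2. Of the 52 genes, 50 lay below 0 in pair 1, 50 lay above 0 in pair 2 and 51 lay below 0 in pair 3. This order of signs, lower, higher, lower, was held by 49 of the 52 genes, beside 17% of all genes tested. The order was read from these data and is given as a description, with no test. Not a single member was lower in all 3 pairs (9.65% of all genes were) or higher in all 3 (9.95% of all genes were).

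**Figure D1:**
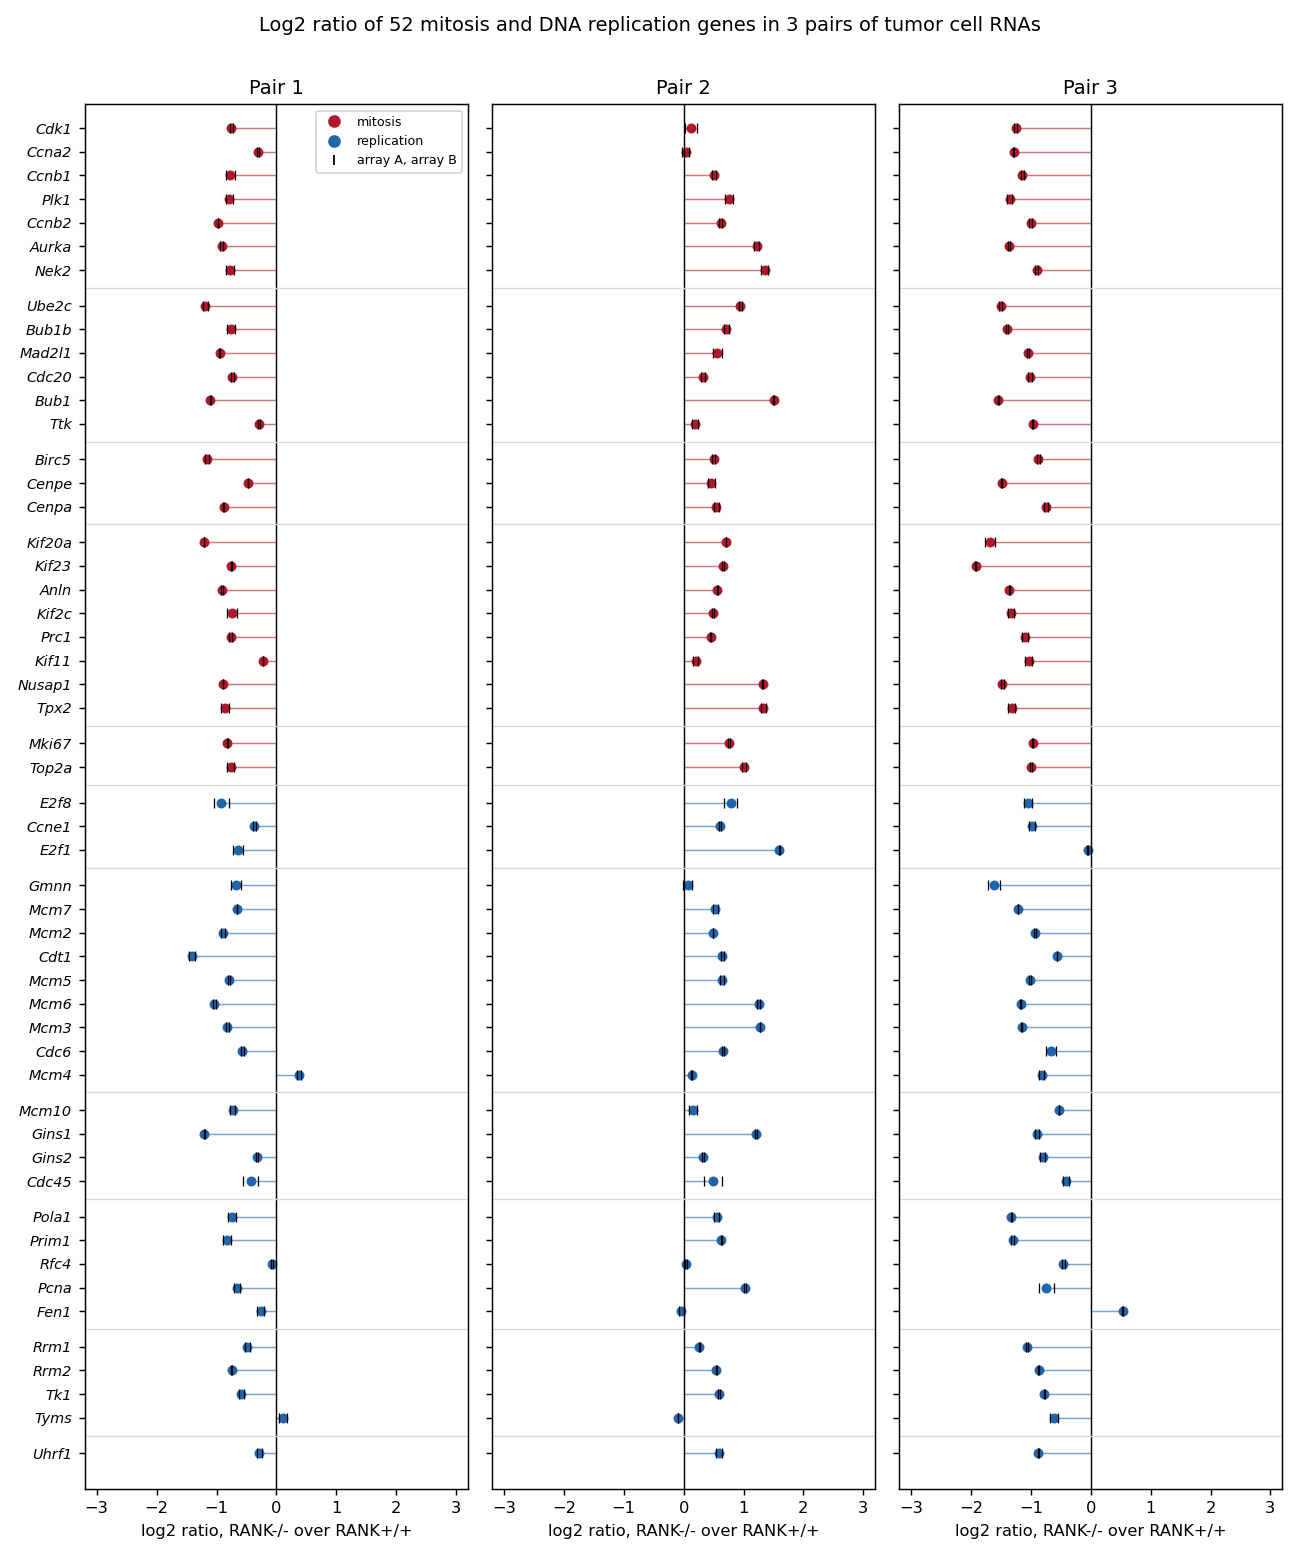
Log2 ratio of RANK-/- over RANK+/+ (x axis) for each of the 52 tested genes (y axis, grouped by role and separated by gray lines) in pairs 1, 2 and 3. Dots are the mean of arrays A and B, ticks are the 2 arrays, red marks mitosis and blue replication genes, and nearly all dots lie left of 0 in pairs 1 and 3 and right of 0 in pair 2.

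No member passed a test of the genotype difference. With the 3 pairs as replicates limma called 0 of the 52 genes, and 0% of all genes, at an adjusted p of 0.05. At an unadjusted p of 0.05 limma called 0 members and 2.88% of all genes, and the lowest unadjusted p of a member was 0.101. The rank product called 0 members and 0.0711% of all genes. The mean over pairs of the members' median was -0.40 ± 0.86 (SD, n = 3 pairs), a spread larger than the mean, and an exact sign-flip test of 3 pairs cannot give a two-sided p under 0.25. This mean rested on which pairs entered it. It was -0.89 without pair 2, -0.23 without pair 1 and -0.09 without pair 3. Without pair 2, 49 of 52 members lay below 0 in both remaining pairs (26.6% of all genes did), 40 had an unadjusted limma p under 0.05 (8.34% of all genes), and the lowest adjusted p was 0.55, so that 0 passed. Pair 2 was already seen to have the opposite sign, so these counts follow from leaving it out and are a description only. Without pair 1 and without pair 3, 0 members had an unadjusted limma p under 0.05 (4.02% and 2.05% of all genes).

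The difference between pairs was far larger than the difference between repeat arrays. A moderated F test of limma, which asks whether the ratios of the 3 pairs are equal given the spread of arrays A and B, called 52 of 52 members, beside 88.4% of all genes tested. The test measures technical spread only and compares these RNAs, not the genotypes. Most genes passed it, so passing is not particular to the members. The median SD of a member over the 3 pairs was 0.902 on the log2 scale, against 0.329 over all genes. The median technical SD was 0.0479 for a member and 0.0633 over all genes. The SD over pairs exceeded the technical SD for 52 of 52 members and for 20884 of 22503 genes. Size in single pairs ran the same way. A ratio at least 2-fold lower was found for 7 members in pair 1 (2.84% of all genes), and at least 2-fold higher for 11 in pair 2 (2.45%). In pair 3, 29 of the 52 members were at least 2-fold lower (3.01% of all genes).

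The promoters of the members carried different letters for mitosis and for replication, as the table of RefSeq promoters on mouse build GRCm38.p6 shows (250 bases before to 50 after each start). Of the 56 members 47 were found there, with 51 promoters. Both strands were searched. CHR letters were TTTGAA, with TTCGAA also taken as a match. The CCAAT box was searched as spelled, and E2F-type letters in any of 6 forms (TTTGGCGC, TTTCCCGC, TTTGCCGC, TTTCGCGC, TTTGGCGG and TTTCCCGG). CHR letters stood in 19 of 25 mitosis promoters (76%) and in 5 of 26 replication promoters (19.2%), the share found in all 32851 promoters being also 19.2%. E2F-type letters stood in 2 of 25 mitosis promoters (8%), in 9 of 26 replication promoters (34.6%) and in 3.98% of all promoters. Among the 14753 promoters of genes tested, 14.2% had CHR and 6.07% had E2F-type letters, so the E2F-type share of mitosis promoters was near that background. CCAAT was found in 80% of mitosis, 61.5% of replication and 37.4% of all promoters, and CHR together with CCAAT in 68%, 15.4% and 7.52%. With only the 250 bases before the start searched, the CHR share of mitosis promoters was 40% (17.1% of all promoters). The E2F-type share of replication promoters was then 23.1% (3.22% of all promoters). Matches of different kinds shared bases in 1 replication promoter and in 0 mitosis promoters.

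The promoters printed here are those of Kif23 and Pola1, the mitosis and the replication gene of lowest mean ratio that has a promoter in the table with a match, and of Fen1 and Tyms, which did not keep the sign order of the other members. Capitals mark CHR, CCAAT and E2F-type letters as they read on the gene's strand, so that ATTGG is CCAAT on the other strand, TTCAAA is TTTGAA and GCGCCAAA is TTTGGCGC. Kif23 lies on the minus strand at chr9:61946750-61947049, Pola1 on the minus strand at chrX:93632106-93632405 and Tyms on the minus strand at chr5:30073576-30073875. Fen1, also on the minus strand, has promoters at chr19:10203872-10204171 and chr19:10204344-10204643.
Kif23 promoter: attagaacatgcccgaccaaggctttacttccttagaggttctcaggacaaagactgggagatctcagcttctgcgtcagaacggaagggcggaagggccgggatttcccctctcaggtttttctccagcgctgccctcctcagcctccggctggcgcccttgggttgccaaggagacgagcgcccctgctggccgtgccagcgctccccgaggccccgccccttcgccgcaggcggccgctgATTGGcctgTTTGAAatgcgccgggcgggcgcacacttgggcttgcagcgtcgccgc
Pola1 promoter: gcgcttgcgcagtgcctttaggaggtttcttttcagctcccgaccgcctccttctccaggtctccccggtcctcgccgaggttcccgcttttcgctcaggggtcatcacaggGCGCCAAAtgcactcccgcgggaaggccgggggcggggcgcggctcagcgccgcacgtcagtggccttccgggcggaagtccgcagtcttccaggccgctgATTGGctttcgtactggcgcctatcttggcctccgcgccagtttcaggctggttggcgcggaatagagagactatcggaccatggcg
Fen1 first promoter: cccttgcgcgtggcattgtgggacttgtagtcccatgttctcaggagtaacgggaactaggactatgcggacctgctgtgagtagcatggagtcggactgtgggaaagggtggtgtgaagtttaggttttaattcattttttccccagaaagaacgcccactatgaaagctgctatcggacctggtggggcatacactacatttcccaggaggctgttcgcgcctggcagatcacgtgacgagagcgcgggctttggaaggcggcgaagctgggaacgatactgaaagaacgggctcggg
Fen1 second promoter: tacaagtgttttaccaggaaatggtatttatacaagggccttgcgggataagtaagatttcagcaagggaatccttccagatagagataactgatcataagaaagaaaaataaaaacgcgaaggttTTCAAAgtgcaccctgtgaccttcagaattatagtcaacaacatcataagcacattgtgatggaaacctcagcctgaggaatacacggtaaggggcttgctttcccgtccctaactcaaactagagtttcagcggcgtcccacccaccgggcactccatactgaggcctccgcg
Tyms promoter: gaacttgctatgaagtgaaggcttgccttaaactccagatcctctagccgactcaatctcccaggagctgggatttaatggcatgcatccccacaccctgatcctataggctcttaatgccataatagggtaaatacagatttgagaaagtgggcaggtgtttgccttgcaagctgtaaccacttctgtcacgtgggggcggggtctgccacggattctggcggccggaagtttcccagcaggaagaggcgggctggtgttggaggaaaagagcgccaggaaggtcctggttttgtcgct
Kif23 held CCAAT and CHR letters close together at the start, and Pola1 held E2F-type letters and CCAAT. The promoter of Tyms and the first of Fen1 held no match, and the second of Fen1 held CHR letters only. A match is a description of letters, and nothing is drawn from its absence.

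Values of each gene are given from here on as log2 ratios of RANK-/- over RANK+/+ in the order pair 1, pair 2, pair 3. Among the kinases and cyclins of mitotic entry, Ccnb2 and Ccnb1, the B-type cyclins, read -0.97, 0.62 and -1.01 and -0.77, 0.51 and -1.14. Their partner Cdk1 read -0.75, 0.13 and -1.26. Plk1, the polo kinase of centrosome maturation, was at -0.79, 0.76 and -1.35. Aurka and Nek2, centrosomal kinases, had the widest range in this role, with -0.92, 1.22 and -1.36 for Aurka and -0.78, 1.35 and -0.91 for Nek2. Ccna2, a cyclin of S phase and early mitosis, read -0.31, 0.03 and -1.29, close to 0 in pair 2. All 7 genes of the role held the common order of signs, and 6 of the 7 were at least 2-fold lower in pair 3.

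The spindle checkpoint holds chromosomes back until each is attached, and the APC/C then marks cyclin B for breakdown. Bub1, a checkpoint kinase at the kinetochore, read -1.10, 1.502 and -1.54 and had the largest swing of all members. Its pair 2 ratio exceeded the mean of pairs 1 and 3 by 2.83. Bub1b, which encodes BubR1, read -0.75, 0.71 and -1.40, and Mad2l1, its partner in the checkpoint complex, -0.95, 0.56 and -1.05. Ube2c, the ubiquitin-conjugating enzyme of the APC/C, was at -1.19, 0.95 and -1.51. Cdc20, the activator of the APC/C, moved less in pair 2, with -0.74, 0.32 and -1.01. Ttk, the Mps1 kinase, read -0.29, 0.19 and -0.97 and was the sole tested member not well above background in every channel (5 of 6 arrays for RANK-/-).

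At the centromere, Cenpa, the histone variant that marks it, read -0.88, 0.55 and -0.75. Cenpe, a kinetochore motor, read -0.47, 0.46 and -1.49, and Birc5, which encodes survivin of the passenger complex, read -1.16, 0.50 and -0.88. Birc5 had 3 usable probes, and all 3 showed the same order of signs. Aurkb, the passenger kinase, and Cenpf, a kinetochore protein, were too dim to test. Of 6 arrays, Cenpf was well above background in the RANK-/- channel of 2 and the RANK+/+ channel of 4, and Aurkb in 1 and 0.

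Spindle motors and cytokinesis genes gave the 2 lowest values of pair 3. Kif23, a motor of the central spindle, was at -0.76, 0.66 and -1.92, the lowest ratio of any member in any pair. Kif20a, a further cytokinesis motor, read -1.21, 0.71 and -1.68. Anln, the anillin of the contractile ring, read -0.91, 0.56 and -1.36, and Prc1, which bundles midzone microtubules, -0.76, 0.45 and -1.09. Nusap1 and Tpx2, which act on spindle microtubules, had ratios above 1 in pair 2, with -0.89, 1.32 and -1.48 for Nusap1 and -0.86, 1.33 and -1.32 for Tpx2. Kif2c, the kinesin that takes microtubules apart at the centromere, read -0.74, 0.48 and -1.34. Kif11, the motor that pushes spindle poles apart, had the smallest ratio of the role in pairs 1 and 2, with -0.22, 0.20 and -1.04. All 8 were at least 2-fold lower in pair 3. Mki67, the coat protein of mitotic chromosomes used as a stain for cycling cells, read -0.82, 0.75 and -0.97, and Top2a, the topoisomerase that untangles sister chromatids, -0.77, 1.01 and -0.997.

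Replication genes held the order of signs in 23 of 26 cases. At S phase entry, Ccne1, cyclin E, read -0.37, 0.60 and -0.99, and the repressor E2f8 read -0.92, 0.79 and -1.05. E2f1, an activator of S phase genes, read -0.64, 1.60 and -0.05, which was the highest member ratio of pair 2 and nearly 0 in pair 3. Ccne2, the other cyclin E, was well above background on 0 arrays.

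Origin licensing loads the helicase subunits Mcm2 to Mcm7 on DNA with the help of Cdc6 and Cdt1. Mcm6 read -1.04, 1.25 and -1.17 and Mcm3 -0.82, 1.27 and -1.15. The ratios of Mcm2 (-0.89, 0.49 and -0.93), Mcm5 (-0.80, 0.64 and -1.02) and Mcm7 (-0.66, 0.53 and -1.21) were of similar size to each other. Mcm4, a subunit of the same ring, differed from them in pair 1, with 0.38, 0.13 and -0.82. Cdt1, the loading factor, had the lowest ratio of any member in pair 1, with -1.41, 0.65 and -0.56. Gmnn, which encodes geminin, the inhibitor of Cdt1, read -0.68, 0.07 and -1.61. Cdc6 was at -0.57, 0.65 and -0.66.

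Helicase activation adds Cdc45 and the GINS complex to the loaded ring. Gins1 read -1.20, 1.21 and -0.90, while Gins2, a subunit of the same complex, read -0.32, 0.32 and -0.80. Cdc45 was at -0.43, 0.50 and -0.41, and Mcm10 at -0.73, 0.16 and -0.53. All 4 genes held the order of signs, and no ratio of the role in pair 3 reached 2-fold.

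At the fork, Pcna, the sliding clamp, read -0.66, 1.03 and -0.74. Pola1, the catalytic subunit of polymerase alpha, and Prim1, its primase, were close to each other, with -0.74, 0.55 and -1.32 for Pola1 and -0.83, 0.63 and -1.30 for Prim1. Rfc4, a clamp loader subunit, read -0.08, 0.04 and -0.46 on its brightest probe and -0.53, 0.46 and -0.66 on its other probe, so the size of its ratio depends on the probe. Fen1, the flap nuclease that trims Okazaki fragments, went against the rest, with -0.26, -0.04 and 0.53.

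In deoxynucleotide supply, Rrm1 and Rrm2, the subunits of ribonucleotide reductase, read -0.49, 0.26 and -1.06 and -0.75, 0.55 and -0.87. Tk1, thymidine kinase, was at -0.59, 0.59 and -0.77. Tyms, thymidylate synthase, did not keep the order and read 0.11, -0.09 and -0.61. Uhrf1, which guides maintenance DNA methylation behind the fork, read -0.28, 0.59 and -0.88. Chek1, the kinase of the replication checkpoint, was well above background on 0 arrays.

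Signals of the separate channels show which RNA of a pair was high. The channel levels, given as normalized log2 intensity of a gene's own probe, are compared only within that gene. Mki67 read 12.45, 13.07 and 12.56 in the RANK-/- channels of pairs 1, 2 and 3 and 13.27, 12.32 and 13.53 in the RANK+/+ channels. The RANK-/- RNA of pair 2 thus lay among the high RNAs and the RANK+/+ RNA of pair 2 was the lowest of all 6, so the genotypes overlapped. Kif23 overlapped too, with 8.16, 8.82 and 7.89 for RANK-/- and 8.91, 8.16 and 9.81 for RANK+/+. For Pcna the levels were 12.74, 14.07 and 12.87 for RANK-/- and 13.40, 13.04 and 13.61 for RANK+/+, with the RANK-/- RNA of pair 2 the highest. Gmnn, the member of lowest mean ratio (-0.74 ± 0.84, SD, n = 3 pairs), read 8.68, 9.17 and 8.25 for RANK-/- and 9.35, 9.10 and 9.86 for RANK+/+. Here the overlap came down to pair 2 alone, where both channels were close to each other.

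Over the 52 members the level relative to the gene's own mean of 6 RNAs had a median of -0.44, 0.21 and -0.45 on the log2 scale in the RANK-/- RNAs of pairs 1, 2 and 3. In the RANK+/+ RNAs it was 0.28, -0.32 and 0.61. The same 3 RNAs, RANK-/- of pair 1, RANK+/+ of pair 2 and RANK-/- of pair 3, were the lowest for 47 of 52 members, and for 8.58% of all genes tested. These RNAs carried Cy5, Cy5 and Cy3, so both dyes occurred among the low and among the high RNAs. Within pairs 1 and 2 the Cy5 RNA was the low one, and within pair 3 the Cy3 RNA was. As only pair 1 had RANK-/- RNA in Cy5, a dye effect cannot be told apart from a difference of pair 1. All 3 RANK-/- RNAs lay below all 3 RANK+/+ RNAs for 0 members, and for 3.82% of all genes. RANK+/+ of pair 3 was above the gene's own mean for 50 members, more than any other RNA.

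**Figure D2:**
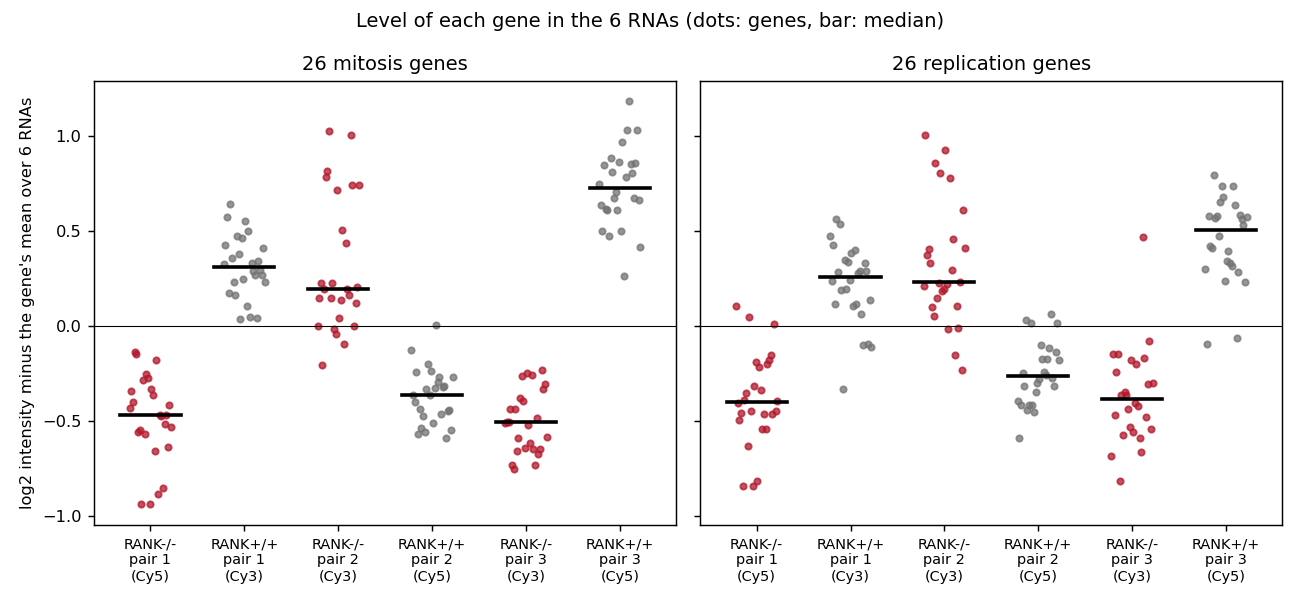
Normalized log2 intensity of each gene minus its own mean over the 6 RNAs (y axis) in each RNA (x axis, with pair and dye), for 26 mitosis genes on the left and 26 replication genes on the right, RANK-/- in red and RANK+/+ in gray. Dots are genes and bars are medians, which lie below 0 in RANK-/- of pairs 1 and 3 and RANK+/+ of pair 2 and above 0 in the other 3 RNAs.

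The 3 members that broke the order were all replication genes (Fen1, Mcm4 and Tyms). Fen1 was highest in the RANK-/- RNA of pair 3, with 12.35, 12.40 and 13.02 for RANK-/- and 12.61, 12.44 and 12.49 for RANK+/+. Its ratio in pair 2 was -0.04, and the sign of that ratio turned with array A alone, so the break of Fen1 rests on pair 3. The sign of Fen1 in pair 3 turned in its turn under median centring, where its mean ratio was -0.19 ± 0.18 (SD, n = 3 pairs). Mcm4 had levels of 12.74, 12.84 and 12.34 for RANK-/- and 12.36, 12.70 and 13.17 for RANK+/+, and its RANK+/+ RNA of pair 1 was low instead of high. Tyms was dim, with 7.12, 6.88 and 7.03 for RANK-/- and 7.01, 6.97 and 7.64 for RANK+/+. E2f1 kept the order but had the highest mean of all members, 0.30 ± 1.16 (SD, n = 3 pairs), and its RANK+/+ level of pair 3 (9.47) was close to its RANK-/- level of that pair (9.42).

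The size of the ratios was larger for mitosis than for replication genes in pairs 1 and 3, within the spread of the pairs. The mitosis median was -0.78, 0.59 and -1.27 and the replication median -0.66, 0.57 and -0.87. The difference of both medians, mitosis minus replication, was -0.13, 0.03 and -0.40, with a mean of -0.17 ± 0.21 (SD, n = 3 pairs). In pair 3, 20 of 26 mitosis genes (76.9%) and 9 of 26 replication genes (34.6%) were at least 2-fold lower. The swing, the ratio of pair 2 minus the mean of pairs 1 and 3, had a median of 1.63 (0.82 to 2.83) over mitosis genes and 1.32 (-0.18 to 2.36) over replication genes. Across the 52 members the swing had a Pearson r of 0.02 with mean intensity, given as a description since members share RNAs and arrays. Ratios of pairs 1 and 2 had r = -0.57 across the 52 members, those of pairs 1 and 3 r = 0.36 and those of pairs 2 and 3 r = -0.21. Over all 22503 genes the corresponding r was -0.28, 0.18 and -0.08.

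**Figure D3:**
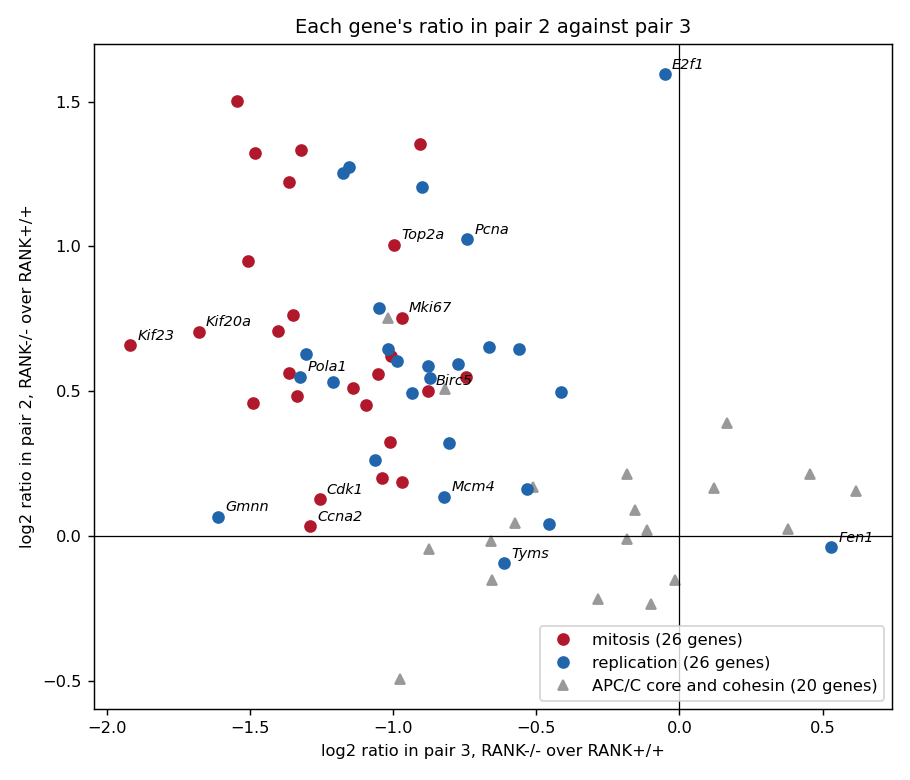
Log2 ratio of RANK-/- over RANK+/+ in pair 3 (x axis) against pair 2 (y axis) for 26 mitosis genes (red), 26 replication genes (blue) and 20 genes of the APC/C core and cohesin (gray triangles), each point a gene. Nearly all members lie in the upper left, mitosis genes further left with Kif23 at -1.92, and Fen1 is the only member right of 0.

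Different probes of a gene mostly had the same sign. For 12 members with several usable probes, 27 of 28 probes held the order lower, higher, lower. The exception was a dim probe of Cdk1 with ratios of -0.08, -0.02 and -0.11. A further probe of Mki67 read -0.67, 0.63 and -1.19, and a dimmer probe of Tpx2 read -0.16, 0.27 and -0.41, below its bright probe in size.

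Other mitosis and replication genes outside the list showed the same order of signs more often than other lists did, as a count without a test. Of 44 other mitosis genes tested, such as condensin, kinetochore and cytokinesis genes, 43 held the order, with a median of -0.68, 0.63 and -1.02. Aspm, a spindle pole protein, read -0.68, 0.64 and -1.93, Ckap2 -1.19, 0.75 and -1.53, Pttg1, the securin, -0.12, 0.05 and -0.06, and Knl1, a kinetochore scaffold, -0.40, 1.49 and -1.06. Of 33 other replication genes 27 held it, with a median of -0.41, 0.56 and -0.80. Exo1, an exonuclease, read -1.09, 0.97 and -1.88, Ticrr, an origin firing factor, -1.22, 0.93 and -1.20, Rpa2, a subunit of the single-strand binding protein, -0.32, 0.73 and -0.32 and Tipin, a fork protection factor, 0.23, 0.83 and -0.81. In these lists limma called 0 genes, and 0 at an unadjusted p of 0.05. CHR letters stood in 75% of 40 promoters of other mitosis genes and in 25% of 28 promoters of other replication genes. E2F-type letters stood in 17.5% and 42.9% of them, so the motif shares were not particular to the members.

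The 20 tested genes of the APC/C core and of cohesin, which act in mitosis but are made throughout the cell cycle, had a median of 0.05, 0.03 and -0.18, and 6 of them held the order. Under median centring, which moved the median of all genes to 0.13, -0.19 and -0.39, these medians were 0.30, -0.28 and -0.85, so the sign of pair 2 turned. The sign of pair 1 turned with processed signals (-0.12) and with the mean over probes (-0.08). Cdc16 (0.08, -0.49 and -0.98) and Cdc26 (-0.43, -0.02 and -0.66) had the lowest means, and Anapc13 (0.18, 0.15 and 0.62) and Anapc7 (0.42, 0.21 and 0.46) the highest. Anapc1, with -0.75, 0.75 and -1.02, moved as the members did. The median SD over pairs was 0.318 in this list, beside 0.902 for the members. Their E2F-type share was 16.7% of 18 promoters and their CHR share 11.1%.

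CDK inhibitors and pocket proteins, which hold back cell cycle entry, and D-type cyclins and their kinases, which drive it, had no common direction, with a median of -0.01, 0.13 and -0.18 and 5 of 16 in the order. The sign of pair 1 turned in 5 of 12 alternative settings and that of pair 2 under median centring (-0.17). Cdkn2b, a CDK inhibitor, read -0.75, 0.18 and -2.07 and Ccnd2, a D-type cyclin, -1.45, 0.93 and -1.47. The highest means were those of Cdkn1a, which encodes the inhibitor p21, with 1.08, 1.07 and 0.23, and Ccnd3 with 0.31, 0.22 and 1.28. None of these 4 passed limma with adjustment over all genes.

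Markers of epithelial, stromal and other cells also varied between pairs. Luminal epithelium markers had a median of 0.29, -0.61 and 0.76, opposite in sign to the members' median in each pair, with 0 of 10 in the members' order. Single markers were mixed, as 4 of 10 lay below 0 in pair 1, 1 above 0 in pair 2 and 1 below 0 in pair 3. The signs of the median held in the 12 alternative settings, but the median of pair 3 was 0.05 under median centring and that of pair 1 was 0.07 in the series table. Their lowest means were those of Krt19 (-1.22, -3.95 and 0.03) and Cdh1 (0.27, -0.47 and -0.15), their highest those of Krt8 (-0.41, -0.55 and 2.08) and Elf5 (0.73, -0.12 and 1.22). The summed signal of the 10 luminal markers ran from 158 to 481 (intensity units divided by 1000) over the RANK-/- RNAs and from 195 to 303 over the RANK+/+ RNAs. Fibroblast markers had a median of 0.13, 0.57 and 1.88 (0 of 10 in the order), with summed signals of 147 to 241 for RANK-/- and 55.3 to 152 for RANK+/+. Postn (0.10, -0.71 and 0.90) and Pdgfrb (1.60, -1.03 and 0.76) were the lowest fibroblast genes, and Col1a2 (0.61, 0.85 and 2.37) and Dcn (-0.71, 1.502 and 2.92) the highest. Milk protein genes had the widest median, -0.86, -1.99 and 3.29, from Csn2 (-3.88, 0.66 and 0.39) and Csn1s1 (-0.86, -3.04 and 3.29) to Lalba (-1.62, -2.07 and 5.44) and Wap (3.75, 0.71 and 3.82). The rank product called 1 of the 5 milk protein genes, Wap, and limma with adjustment called 0. The milk median of pair 1 turned to 0.09 when only the 4 genes above background in every channel were kept. Their summed signals ran from 14.8 to 95.3 for RANK-/- and from 3.49 to 42.5 for RANK+/+.

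Basal markers had a median of 0.07, -0.02 and -0.01, with Krt17 (-1.66, 0.05 and -2.10) and Krt5 (-1.41, -2.13 and 0.33) lowest and Acta2 (0.89, 0.02 and -0.01) and Oxtr (1.84, 0.74 and 0.08) highest. Their summed signals were 29.0 to 33.3 for RANK-/- and 37.3 to 54.2 for RANK+/+. Endothelial markers had a median of 0.01, -0.18 and 0.56, from Cdh5 (0.46, -1.01 and 0.56) and Pecam1 (0.02, -0.25 and 0.29) to Tek (-0.02, 0.23 and 0.42) and Cldn5 (0.72, 0.14 and 0.81), with summed signals of 3.70 to 4.43 and 2.96 to 4.25. The 11 tested leukocyte markers had a median of -0.26, 0.07 and 0.13, which median centring turned to -0.16 in pair 2 and -0.25 in pair 3. Their summed signals were 10.5 to 13.1 and 9.89 to 34.3. The top of that range is the RANK+/+ RNA of pair 1, where S100a9 (-4.12, -0.04 and -0.25) and S100a8 (-3.99, 0.07 and -0.11) were high. Lyz2 (-0.11, 0.24 and 0.13) and Itgam (0.49, -0.23 and 0.03) had the highest leukocyte means. The part of cell makeup in the ratios of the mitosis and replication genes was not tested.

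**Figure D4:**
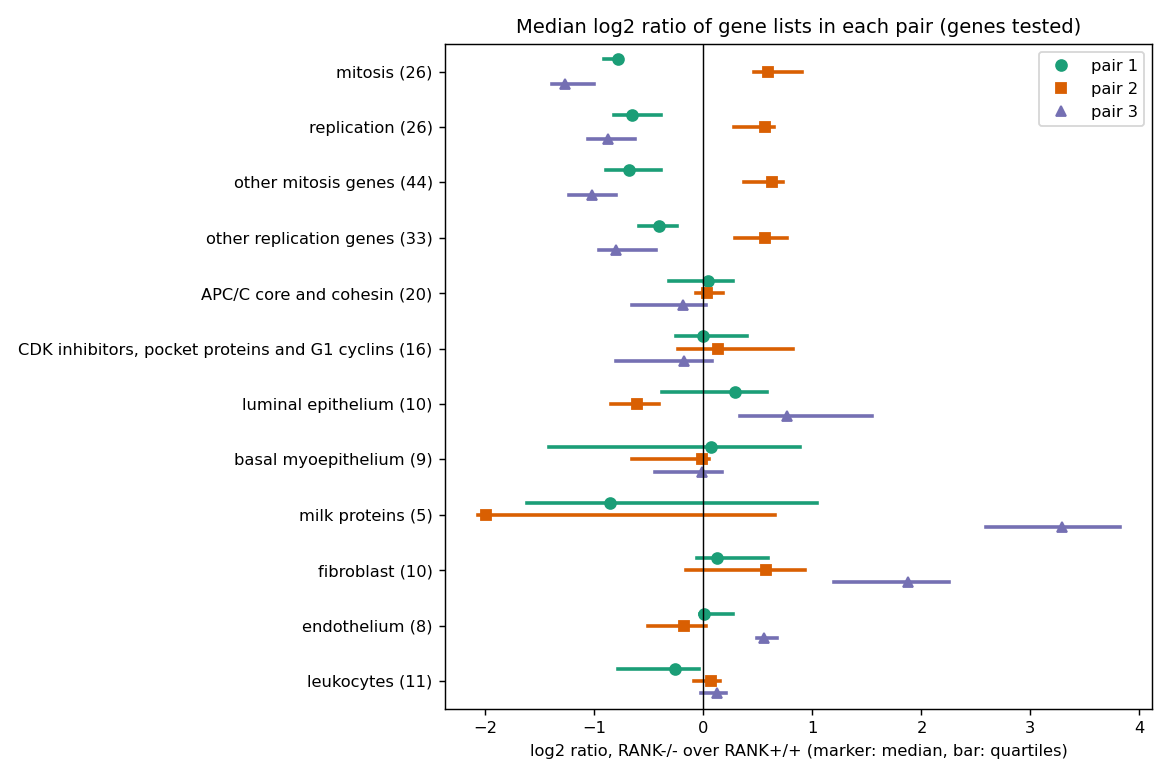
Median log2 ratio of RANK-/- over RANK+/+ (x axis) of each gene list (y axis, genes tested in brackets), with quartiles as bars, for pair 1 (circles), pair 2 (squares) and pair 3 (triangles). The mitosis and replication lists lie left of 0 in pairs 1 and 3 and right of 0 in pair 2. The APC/C core and cohesin medians are 0.05, 0.03 and -0.18, with the lower quartile of pair 3 at -0.66. The luminal medians lie on the opposite side of 0 from the mitosis medians, with quartiles on both sides of 0 in pair 1.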

How the data were processed

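RNA of sorted CD45- cells was hybridized by the authors to 6 two-color Agilent mouse arrays, and per the labels the scans were extracted with Agilent Feature Extraction 10.7.3.1. The deposited scanner files give spot intensity for both dyes before normalization (median signals and background, and processed signals), and the deposited series table gives the authors' normalized log2 ratios, used as an alternative. Dye swaps are named in the study's methods, but per the titles arrays A and B of a pair have the same dyes.

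With limma 3.58.1 (R 4.3.3), intensities were corrected by normexp (offset 50), then normalized by loess within and Aquantile between arrays, leaving out control and outlier spots, and averaged per probe. Ratios were signed RANK-/- over RANK+/+, and arrays A and B averaged, which gave n = 3 pairs. A probe was kept if, in the channel of either genotype, arrays A and B were well above background in 2 or more pairs (54.3% of 55681 probes), and the brightest kept probe stood for its gene. limma tested the mean ratio against 0 (two-sided), with Benjamini-Hochberg adjustment over 22503 genes, and a rank product of 500 draws was the second test. Where labels do not show that RNAs came from separate tumors, p-values measure the spread between these RNAs, which may be technical, and the number of arrays limits the precision.

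Values in each pair are given for all tested members, and of each other list for the 2 genes of lowest and the 2 of highest mean. Anapc1 and the further probes were named after their values were seen. Members and lists were chosen with earlier results of these data known. Alternatives changed the background, normalization, filter, probe, array, pair, fit and test.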

Additional observations from a re-analysis of the deposited data

How the results depend on the processing

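No member was called under any fit run, but 6 arrays as separate replicates (298 genes), the pair as a random block (13) and the rank product (16) called other genes, where limma on 3 pairs called 0. Without the replicate block, the channels as unpaired samples gave 0 genes and 0 members (2 members at an unadjusted p of 0.05), and the deviations of both channels of a pair had correlations of -0.03, -0.22 and -0.04. Median centring moved the median of all genes to 0.13, -0.19 and -0.39 and left the mitosis median at -0.61, 0.32 and -1.79 and the replication median at -0.47, 0.31 and -1.52, so the directions held. Under it 42 members kept the order of signs and 7 were below 0 in all pairs (1 with array A alone, 1 with array B alone). Leaving out a pair gave 1 to 49 members below 0 and 0 to 1 above 0 in all remaining pairs. The mean ratio of Fen1 turned to -0.19 under median centring, -0.0062 with processed signals and -0.0028 in the series table. Over the pairs left out, means ranged from -0.15 to 0.25 for Fen1, from -0.34 to 0.26 for Mcm4, from -0.70 to 0.18 for Pcna and from -0.35 to 0.77 for E2f1. The CHR share of mitosis promoters was 40% before the start alone. Beside the 9 members whose sign in a pair turned under median centring and those 3 with a single array (Fen1, Gmnn and Ccna2), no pair ratio of a member changed sign under the other 9 settings of background, normalization, filter and probe. Dim probes limit Aurkb, Cenpf, Ccne2 and Chek1, and with no filter Cenpf (-0.09, 0.17 and -0.30) and Aurkb (-0.07, 0.28 and -0.05) held the order, while Ccne2 (0.15, 0.04 and -0.11) and Chek1 (0.06, 0.06 and -0.09) did not.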
